A study of Mus musculus with 14 samples.

Results

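The 50 genes described here encode the eukaryotic translation initiation factors (eIFs) of the mouse and the proteins that bind them. They are all protein-coding genes whose symbol starts with Eif, without the eIF2 kinases (Eif2ak genes) and without Eif2s3y, and they were chosen by name, not by their values. They were 50 of 55487 genes in the count tables, and of 21974 protein-coding genes. Their messenger RNA was followed by bulk RNA sequencing in 14 libraries from 3 populations of mouse bone marrow cells. LSK cells (lineage-negative, Sca1-positive, c-kit-positive) hold the stem and multipotent progenitor cells, and LK cells (lineage-negative, c-kit-positive, labelled MP(LK)) are largely committed myeloid progenitors. The study's sequencing methods state that both were sorted from Jak2VF/+ mice under PBS or IL-1β. Its description of that treatment cohort is of lethally irradiated C57BL/6 mice that had been given marrow of Mx1Cre; Jak2VF/+ mice, which carry 1 mutant copy of Jak2, the kinase gene altered in myeloproliferative neoplasms, after pI-pC had induced Cre from the interferon-responsive Mx1 promoter in the donors. Residual host cells were not told apart in the counts. Controls and treated mice alike carried this graft, and they received PBS or 0.5 μg of the inflammatory cytokine IL-1β intraperitoneally, 3 times a week over 16 weeks. Mesenchymal stromal cell (MSC) cultures were grown for 21 days from wild-type C57BL/6 marrow and given PBS or 5 ng/ml IL-1β for 72 h. There were 3 LSK and 3 LK libraries under PBS, 2 of each under IL-1β, and 2 MSC libraries under each treatment, the MSC libraries under PBS being labelled replicates 2 and 3. The labels give no ages, and the study gives an age only for its mice in general.

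Initiation is the step at which a ribosome is placed on the start codon of a messenger RNA. The eIF4F complex (cap-binding eIF4E, helicase eIF4A, scaffold eIF4G) prepares the capped end of the message, eIF2 carries the initiator tRNA to the small ribosomal subunit and is recharged with GTP by its exchange factor eIF2B, eIF3 holds the small subunit and the message together, and eIF1, eIF1A, eIF5 and eIF5B act in start codon choice and in joining of the large subunit. In blood formation, stem cells are known for low protein synthesis and myeloid progenitors for higher synthesis, and phosphorylation of eIF2 or binding of eIF4E by the 4E-BP proteins restrains initiation without a change in the messenger RNAs measured here.

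The counts assigned to genes ran from 12172400 to 16271408 per library in LSK under PBS, but only from 4393233 to 8641124 in LSK under IL-1β, and from 12804883 to 18544346 in LK under PBS against 6367352 to 7652483 under IL-1β. In both populations depth and treatment therefore cannot be told apart. The MSC libraries held 5834909 to 30871055 counts. The labels were checked against markers by RPKM, a level scaled to exon length and library size. Ly6a, which encodes Sca1, was present in LSK under PBS at 20.7 to 31.6 RPKM, as the LSK gate requires. In LK under PBS, whose stated gate does not name Sca1, it lay at 0.21 to 0.63. All 8 macrophage markers were present in the MSC cultures, at a summed 10134 to 12930 RPKM under PBS, against 437 to 740 for 8 mesenchymal markers, of which Lepr was at 0, so the cultures held macrophage RNA besides stromal RNA. Nothing in the labels ties libraries to separate animals or cultures, so every p-value measures only the spread between these libraries. In bulk RNA, fewer cells of a type and less RNA per cell cannot be told apart.

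The members took 1.33 to 1.44% of all counts in LSK under PBS and 1.75 to 1.83% in LK under PBS, and 0.785 to 0.825% in the MSC cultures. Per kilobase, the same gene led in all 3 populations. It was Eif5a (chromosome 11, 69916714 to 69921958, GRCm38), whose protein helps ribosomes through difficult stretches of peptide. Eif5a stood at 402 ± 54.3 RPKM in LSK (SD, n = 3), at 719.5 ± 69.3 in LK (n = 3) and at 316 ± 47.5 in MSC (n = 2) under PBS, and its libraries did not overlap with those of the next member in any population. That next member was Eif4a1 (chromosome 11, 69666936 to 69672423), the main eIF4A helicase, in LSK at 206 ± 17.3 RPKM and in LK at 340.3 ± 10.1. In MSC it was Eif1, which guards start codon choice, at 227 ± 24.8 RPKM, with Eif4a1 behind it at 212 ± 5.98. In LSK the libraries of Eif4a1 overlapped with those of Eif4b, the helper of the helicase (200.2 ± 11.3 RPKM), and the libraries of Eif4b with those of Eif3b, a core scaffold of eIF3 (187 ± 51.9 RPKM), so this order is not resolved.

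At the other end, Eif4e1b, an eIF4E relative of oocytes, had 0 counts in every library. Eif4ebp3, a 4E-BP inhibitor gene, had at most 14 counts in a library. Of its exon bases 67.3% are shared with another gene on the same strand, and pairs that matched both genes would not have been counted. Eif3j2, a near copy of the eIF3 subunit gene Eif3j1, lay at 0.406 ± 0.119 RPKM in LSK and was 23.5 to 58.5 times below Eif3j1 over the libraries of all groups; reads that matched both copies would not have been counted. Of the 49 members with counts, 43 had their highest PBS mean in LK, 4 in MSC (Eif1, Eif1b, Eif4e3 and Eif5a2) and 2 in LSK (Eif4g3 and Eif6). The median over the members was 34.3 RPKM in LSK, 54.2 in LK and 29.7 in MSC under PBS. These cross-population levels are a description, since MSC differ from the other cells also in genotype, culture and table, and were not tested.

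**Figure D1:**
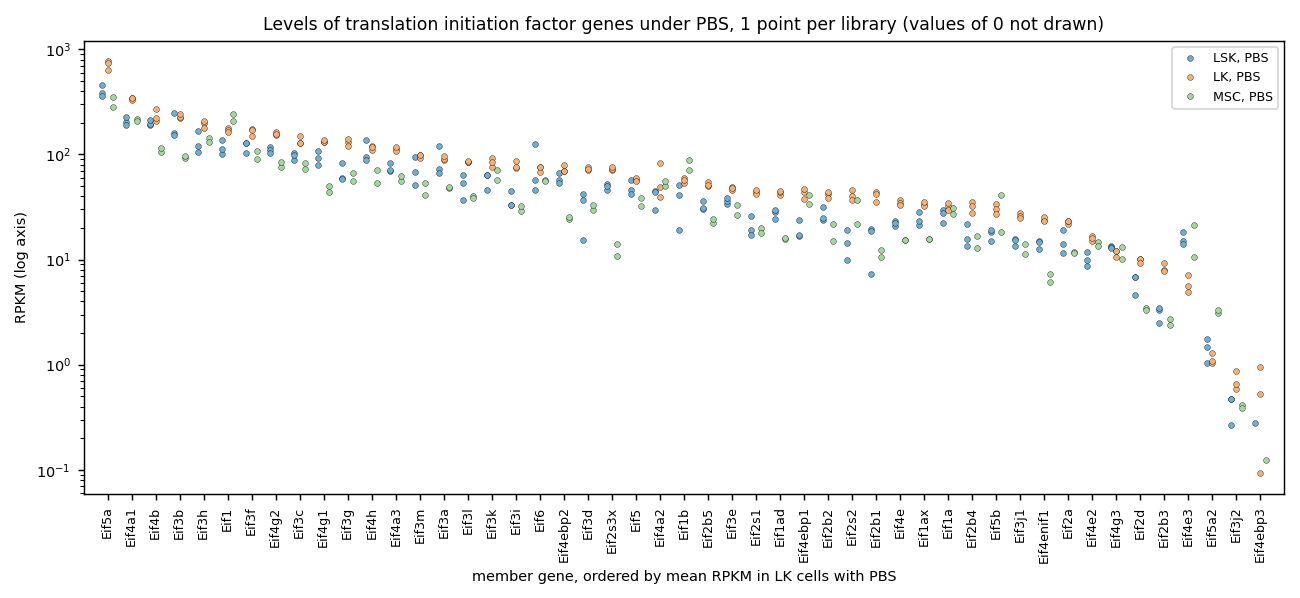
RPKM (log scale) of members in LSK, LK and MSC under PBS, with a point for each library, ordered by mean RPKM in LK; values of 0 are not drawn. Eif5a is at the top in each population, and 43 members had their highest mean in LK.

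The balance between paralogs was followed as a description, without a test. Eif4a1 exceeded Eif4a2, the alternative helicase subunit, 4.25 to 6.87-fold per kilobase in LSK under PBS, 4.0 to 8.67-fold in LK and 3.70 to 4.29-fold in MSC, ranges that overlap. Eif4e, the cap-binding protein itself, exceeded Eif4e3, a divergent cap-binding relative, 4.59 to 6.96-fold in LK, but only 1.13 to 1.59-fold in LSK. In MSC this ratio was 0.716 to 1.45. Of the scaffolds, Eif4g1 lay 6.25 to 8.30-fold above Eif4g3 in LSK, 11 to 12.5-fold in LK and 3.33 to 4.88-fold in MSC. The RNA of the 4E-BP inhibitors was mostly Eif4ebp2 in LSK, where the ratio of Eif4ebp1 to Eif4ebp2 was 0.247 to 0.440, and in LK (0.539 to 0.620), whereas Eif4ebp1 led in MSC under PBS (1.32 to 1.68). Eif5a2, the second eIF5A gene, lay 222 to 343-fold below Eif5a in LSK and 91.1 to 106-fold below it in MSC. Of the exon bases of Eif4e3, 14.8% are shared with another gene on the same strand, and 9.63% of those of Eif4a2 with small RNA genes.

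The promoters of the members were searched for the E-box CACGTG, the palindrome bound by MYC and other E-box factors, because MYC is known to act on translation genes. The windows, from RefSeq on GRCm38.p6, run from 250 bases before to 50 bases after each start site, and the motif reads the same on both strands. A window was found for 38 members, of which 10 held the motif (26.3%), against 2187 of 27025 genes of the table (8.09%). Shown here, for genes of the cap complex and for the 2 members called in MSC below, are 30 bases around the motif on the gene's strand, with the motif in capitals. The match for Eif4a1 is at chr11:69672595-69672624 (minus strand). Those for Eif4e at chr3:138527192-138527221 and for Eif4g1 at chr16:20672661-20672690 are on the plus strand. That for Eif5a is at chr11:69921443-69921472 (minus) and that for Eif1b at chr9:120492570-120492599 (plus). Eif4e, Eif4g1 and Eif5a each also hold a further match that is not shown. Each match shown lies upstream of a RefSeq start site of its gene. Only the match for Eif4a1 lies outside the gene's span in the annotation used for counting.
Eif4a1: cgatcgcctccgCACGTGtaaaggtgctgg
Eif4e: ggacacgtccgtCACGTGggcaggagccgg
Eif4g1: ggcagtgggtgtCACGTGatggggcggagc
Eif5a: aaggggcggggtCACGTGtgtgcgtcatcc
Eif1b: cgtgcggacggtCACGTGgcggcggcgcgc
These genes share the 6 letters, and all but Eif4a1 also have the letters gt just before them. A match is a description of the sequence and says nothing of binding in these cells, and the 12 members without a window, Eif2b3 and Eif4e3 among them, were not searched.

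The comparison of LSK with LK under PBS asked how the factors differ between the stem cell compartment and the myeloid progenitors of mutant grafts. Most members were lower in LSK. Of 48 tested, 21 were called lower and 1, Eif4e3, higher, whereas 12.8% of all 12737 genes tested were called lower and 18.4% higher. A call needed a Benjamini-Hochberg adjusted p under 0.05 in edgeR's quasi-likelihood test and a change of over 0.5 on the log2 scale. The lower calls took in all 5 subunits of eIF2B, both Eif2s1 and Eif2s2 of eIF2, 5 of 14 eIF3 genes and Eif4a1 and Eif4e of eIF4F. The median log2 difference of the members was -0.51, against 0.04 over all genes, and 43 of the 48 had a negative value. In 33 members every LSK library lay below every LK library, and in 2 above, where 24.2% and 26.2% of all genes did so. Values below are CPM, counts scaled to library size, on a scale common to the 10 LSK and LK libraries, in the order of replicates 1, 2 and 3.

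**Figure D2:**
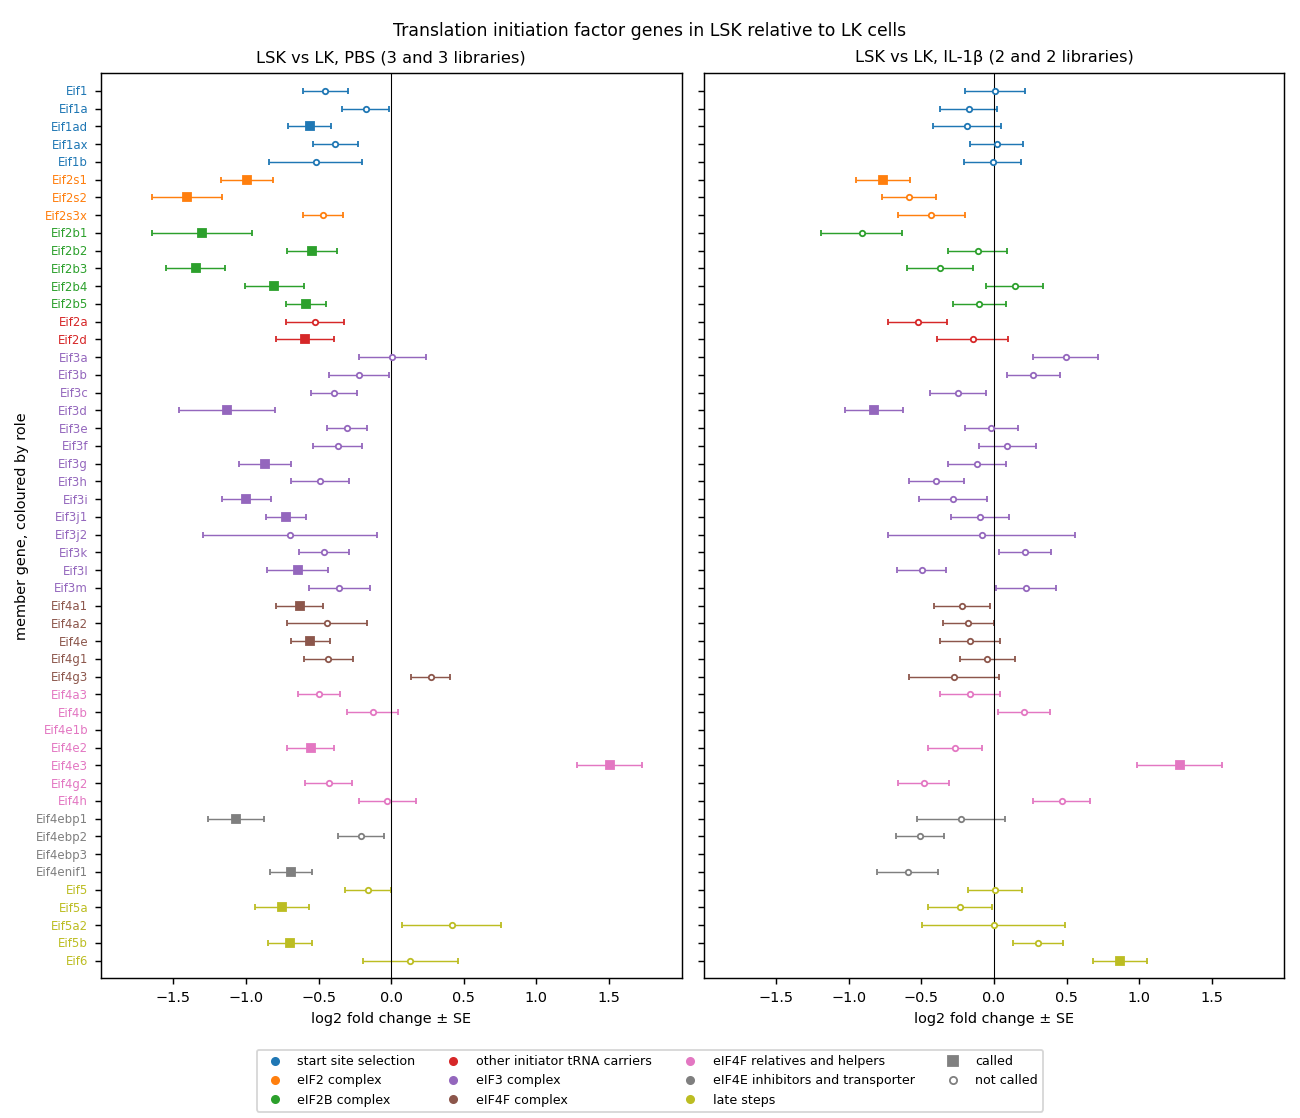
Log2 differences of LSK against LK for each member under PBS and under IL-1β, with their standard errors, coloured by role; filled squares mark calls. Under PBS 43 of 48 lie below 0, with Eif4e3 at 1.50 on the other side; under IL-1β 34 lie below 0.

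Of the 3 eIF2 genes, 2 were called lower. Eif2s2, the beta subunit of eIF2, read 111, 73.3 and 147 CPM in LSK and 315, 281 and 260.5 in LK under PBS. All LSK libraries lay below all LK libraries, and the fitted level was 2.65-fold lower in LSK (log2 -1.41 ± 0.24 SE, edgeR quasi-likelihood adjusted p = 0.00311). Eif2s1, the alpha subunit whose phosphorylation restrains initiation, read 109, 93.5 and 144 CPM in LSK against 222, 213 and 238 in LK (log2 -0.99 ± 0.18, adjusted p = 0.00426). The gamma subunit gene Eif2s3x had a value of -0.47 (adjusted p = 0.0308), under the fold threshold.

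The exchange factor eIF2B was lower throughout, with log2 differences from -1.35 to -0.54 over its 5 genes. Eif2b3, a catalytic subunit named by the study, read 24.7, 17.7 and 25.4 CPM in LSK and 62.6, 53.2 and 52.9 in LK. Its fitted level was 2.54-fold lower in LSK (log2 -1.35 ± 0.20, edgeR adjusted p = 0.00191). Eif2b4, a regulatory subunit, read 47.0, 62.6 and 39.5 CPM in LSK and 93.1, 85.8 and 75.4 in LK (log2 -0.80 ± 0.20, adjusted p = 0.0169). In both genes each LSK library lay below each LK library. Of the other carriers of initiator tRNA, Eif2d was called lower and Eif2a, at log2 -0.53 and adjusted p = 0.0729, was not. Both encode carriers that can deliver initiator tRNA without eIF2.

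Within eIF3, the called genes were Eif3d, Eif3g, Eif3i, Eif3j1 and Eif3l, while the core scaffold gene Eif3b, at log2 -0.22 ± 0.20 (edgeR adjusted p = 0.443), and Eif3a, at 0.01, were not called. Eif3i, a subunit of the eIF3b-g-i module, read 141, 135 and 186 CPM in LSK against 328, 285 and 291 in LK (log2 -1.0 ± 0.17, adjusted p = 0.00305). Eif3g, its neighbour in that module, read 135, 128 and 185 against 265, 243 and 291 (log2 -0.87 ± 0.18, adjusted p = 0.00745). The groups did not overlap in either. Eif3j1, a loosely bound subunit, read 89.1, 100 and 100.4 CPM in LSK and 164, 154 and 149 in LK (log2 -0.72 ± 0.14, adjusted p = 0.00494). Eif3d, the subunit able to bind the cap, was uneven in LSK at 209, 82.7 and 235 CPM, yet all 3 values lay under the 384, 359 and 379 of LK (log2 -1.13 ± 0.33, adjusted p = 0.0304).

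Of the cap-binding machinery, Eif4a1 read 1004, 908 and 1104 CPM in LSK and 1545, 1462 and 1551 in LK (log2 -0.63 ± 0.16, edgeR adjusted p = 0.0190). Eif4e read 159.8, 136 and 151 against 226, 211 and 205 (log2 -0.56 ± 0.14, adjusted p = 0.0143). Both were lower in every LSK library. Eif4a2 overlapped, at 180.0, 263 and 263 CPM in LSK and 269, 450.4 and 220.2 in LK (log2 -0.44, adjusted p = 0.252), and Eif4g1 had a value of -0.43 (adjusted p = 0.0808). Eif4e3 went the other way, at 42.9, 50.4 and 39.7 CPM in LSK and 14.4, 12.7 and 18.7 in LK, or 2.84-fold higher in LSK (log2 1.50 ± 0.22, adjusted p = 0.00181). It had the lowest adjusted p of all members in this comparison. Eif4e2, a cap binder known for translational repression, was lower in LSK (log2 -0.56 ± 0.16, adjusted p = 0.0302).

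Of the 3 tested genes that hold eIF4E back or move it, 2 were called lower in LSK. Eif4ebp1 read 41.8, 41.4 and 58.5 CPM in LSK against 98.0, 85.4 and 107 in LK (log2 -1.07 ± 0.19, edgeR adjusted p = 0.00411), and Eif4enif1, which shuttles eIF4E into the nucleus and to P-bodies, read 109, 87.8 and 105 against 155, 165 and 155 (log2 -0.69 ± 0.14, adjusted p = 0.00721). Eif4ebp2, the more abundant inhibitor, had a value of -0.21 (adjusted p = 0.349). Among the late factors, Eif5b, the GTPase of subunit joining, read 205, 204 and 167 CPM in LSK and 335, 304 and 274 in LK (log2 -0.70 ± 0.15, adjusted p = 0.00965). Eif5a read 1048, 931 and 1243 against 1874, 1562 and 1851 (log2 -0.75 ± 0.19, adjusted p = 0.0157). Each of the called genes named here was lower in all 3 LSK libraries, while Eif5, the GTPase activator of eIF2, was not called at log2 -0.16 (adjusted p = 0.470).

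Cell type markers moved with this comparison too. In LSK under PBS, 8 of 8 stem and multipotent markers were called higher than in LK, and 6 of 6 erythroid markers (summed 128 to 169 RPKM in LSK, 1599 to 2026 in LK) and 5 of 6 granulocyte and monocyte progenitor markers lower; their part in the eIF difference was not tested. The called count rested in part on single LK libraries. It was 8 lower without LK PBS replicate 1, 14 without replicate 2 and 13 without replicate 3, with Eif4e3 higher each time. In either direction 18.75, 31.25 and 29.2% of the members were then called, against 16.1, 17.6 and 24.3% of all genes. Without replicate 1 the share of members was thus near that over all genes. With the replicate number as a block, which pairs LSK and LK libraries, 23 members were lower, Eif2a and Eif4a3 being added. In either direction 50% of members were then called, against 32.4% of all genes.

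Under IL-1β the same comparison rested on 2 libraries against 2, and few members were called. Eif6 and Eif4e3 were called higher in LSK and Eif3d and Eif2s1 lower, that is 2 and 2 of 48, against 4.18% and 4.14% of all 11743 genes tested. The members' median log2 difference was -0.16 (all genes -0.02), with 34 of 48 negative, 15 with every LSK library below every LK library and 8 above (31% and 28.4% of all genes). Eif2s1 read 121 and 145 CPM in LSK and 215 and 238 in LK (log2 -0.77 ± 0.19, edgeR quasi-likelihood adjusted p = 0.0496), and Eif3d read 156 and 207 against 304 and 339 (log2 -0.83 ± 0.20, adjusted p = 0.0493). Eif4e3 kept its direction, at 62.5 and 38.2 CPM in LSK and 23.1 and 18.8 in LK (log2 1.28 ± 0.30, adjusted p = 0.0455). Eif6, which keeps the large ribosomal subunit from joining too early, read 343 and 428 CPM in LSK against 207 and 216 in LK (log2 0.87 ± 0.18, adjusted p = 0.0361). All 4 were separated without overlap, but the calls rest on 2 libraries a group. Without LSK IL-1β replicate 1 the members' median rose to 0.03, with 26 positive and 22 negative. Without LK IL-1β replicate 1 it was -0.24, and without LK IL-1β replicate 2 it was -0.09.

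The treatment comparison in LSK asked what 16 weeks of IL-1β did to the factors in the stem cell compartment. The members leaned upward without a single call. Of 48 tested, 41 had a higher fitted level under IL-1β and the median log2 change was 0.41 (all genes -0.06), but edgeR's quasi-likelihood test called 0, as against 0.32% of all 13132 genes called higher and 0.312% lower. At an unadjusted p under 0.05 there were 9 members higher and 0 lower, 18.8% of those tested, about the 18.5% of all genes in either direction. DESeq2 called 1 member, Eif5b (2.08%), against 6.89% of all genes. In 22 members both IL-1β libraries lay above all 3 PBS libraries and in 1 below, where 18.2% and 21.4% of all genes did so. These PBS libraries are also the LSK side of the comparison with LK, so the 2 sets of values are not independent.

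**Figure D3:**
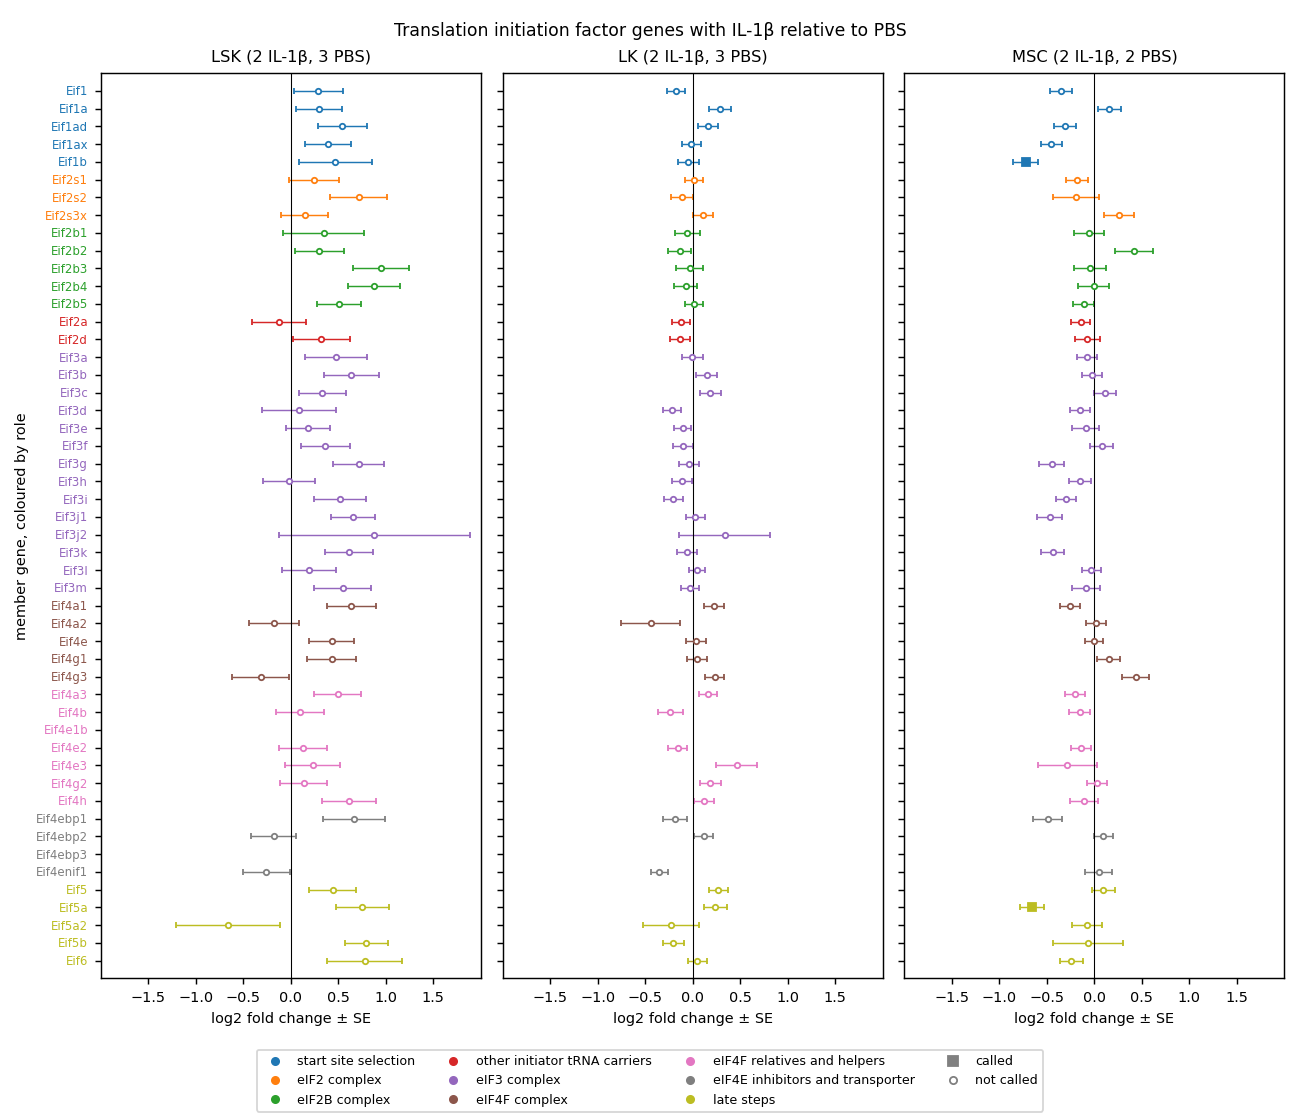
Log2 change under IL-1β against PBS for each member in LSK, LK and MSC, with standard errors, coloured by role; filled squares mark calls. LSK values sit mostly above 0 (41 of 48), LK values on both sides and MSC values mostly below, where Eif1b and Eif5a were called.

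The subunit joining factor gene Eif5b read 205, 204 and 167 CPM under PBS and 338 and 311 under IL-1β (log2 0.80 ± 0.23, edgeR adjusted p = 0.131). The eIF2B gene Eif2b3 read 24.7, 17.7 and 25.4 under PBS and 37.0 and 48.3 under IL-1β (log2 0.95 ± 0.30, adjusted p = 0.153), and Eif2b4 47.0, 62.6 and 39.5 against 79.5 and 98.8 (log2 0.88 ± 0.28, adjusted p = 0.156). In these 3 the treated libraries lay above all controls, without passing the adjusted threshold. Eif4a1, the helicase gene the study names, read 1004, 908 and 1104 CPM under PBS and 1330.5 and 1718 under IL-1β (log2 0.64 ± 0.26, edgeR adjusted p = 0.238). The study reported a significant rise of Eif4a1 in treated LSK cells in its own RNA-seq test. It also reported a significant rise by RT-qPCR, with 3 biological replicates a group. Its gene set enrichment analysis of treated LSK cells reported upregulated sets that include translation, MYC targets and mTORC1 signaling. No set test was run here. In each direction the study called more transcripts than the 905 genes that DESeq2 called here in both. DESeq2 as run here called only Eif5b among the members. Eif5a read 1048, 931 and 1243 against 1432 and 2106 (log2 0.76 ± 0.28, adjusted p = 0.206). Both again had no overlap, and neither passed.

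Other members were split by single libraries. Eif6 read 142, 372 and 174 CPM under PBS and 343 and 428 under IL-1β, its second PBS library standing with the treated ones (log2 0.78 ± 0.39, edgeR adjusted p = 0.318); without that library Eif6 was called higher. Eif4g3 read 171, 158 and 160.2 CPM under PBS, and its treated libraries parted, at 168 and 86.3. Eif4e3 at 42.9, 50.4 and 39.7 CPM under PBS had treated libraries on both sides, 62.5 and 38.2. LSK PBS replicate 2 was the lowest of the 3 controls for 24 members and the highest for 14, and without it 40 members were positive with a median of 0.39.

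By role, the medians of the LSK change were 0.76 for the late factors, 0.51 for eIF2B, 0.50 for eIF3, 0.43 for eIF4F, 0.39 for start site selection, 0.24 for eIF2, 0.18 for the relatives and helpers of eIF4F and 0.10 for the other carriers of initiator tRNA. The inhibitors and transporter of eIF4E had a median of -0.18, and Eif4ebp2 and Eif4enif1 were their negative members; Eif4enif1 read 109, 87.8 and 105 CPM under PBS and 92.2 and 71.3 under IL-1β. Markers moved in the same libraries. The summed granulocyte and monocyte progenitor markers were at 771 to 1230.4 RPKM under PBS and 3991 to 5235 under IL-1β, with 4 of 6 called higher, and the stem and multipotent markers at 219 to 259.7 and 116 to 122, with 3 of 8 called lower. No defining marker of either list was at 0, and their part in the eIF values was not tested. A fit of all 10 LSK and LK libraries together called 4 members higher, Eif2b3, Eif2b4, Eif3j1 and Eif5b, or 8.33%, no more than the 8.87% of all genes that it called.

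**Figure D4:**
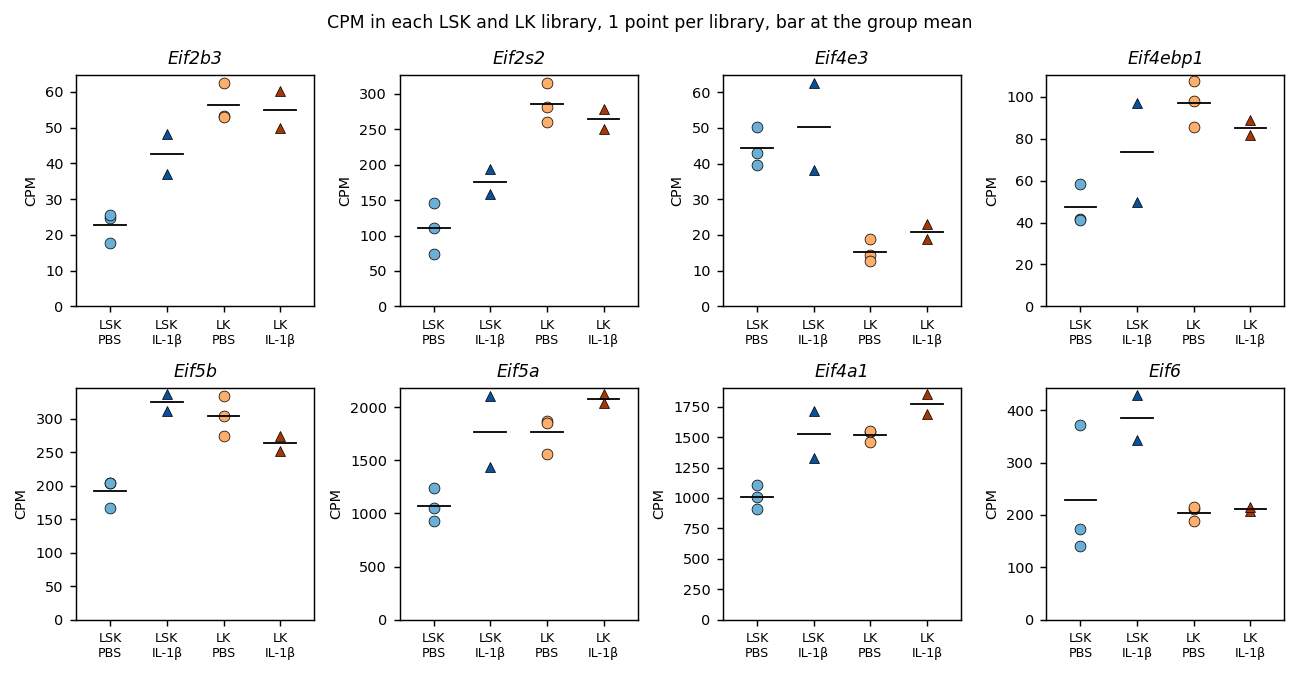
CPM in every LSK and LK library for members that the comparisons turn on, on a scale common to the 10 libraries, with bars at group means. Eif2b3, Eif5b and Eif4a1 are lower in LSK PBS than in each other group, while Eif4e3 is higher in LSK than in LK and 1 of the 3 LSK PBS points of Eif6 stands with the treated ones.

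**Figure D5:**
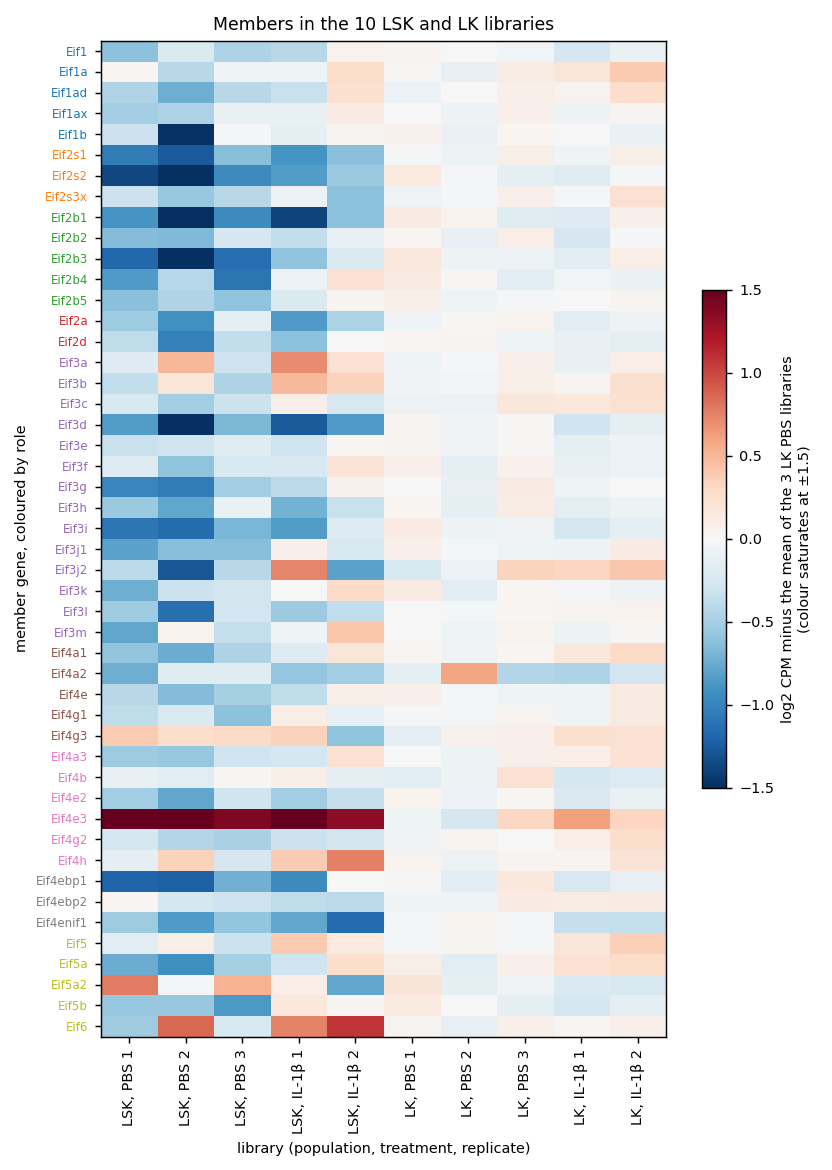
Log2 CPM of each member in each LSK and LK library minus the mean of the 3 LK PBS libraries; columns are libraries, rows are members by role, blue is lower and red higher. The LSK PBS columns are mostly blue, Eif4e3 is red in all 5 LSK libraries, and the LSK IL-1β columns are paler.

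In LK the members did not lean either way under IL-1β. Of 48 tested, 22 were positive and 26 negative, the median log2 change was -0.02 (all genes -0.03) and the values ran from -0.44 to 0.46. edgeR's quasi-likelihood test called 0, whereas 6.77% of all 12835 genes were called higher and 2.57% lower, and DESeq2 called 0 members and 12% of all genes. At an unadjusted p under 0.05, 3 members were higher and 1 lower, 8.33% of those tested against 24.7% of all genes. Every treated library lay above every control in 9 members and below in 10 (23.5% and 22.2% of all genes). Eif4enif1 came nearest, at 155, 165 and 155 CPM under PBS and 125 and 124 under IL-1β (log2 -0.35 ± 0.09, edgeR adjusted p = 0.0450), a fall past the adjusted p but under the fold threshold.

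Smaller shifts without overlap, none past the threshold, were seen in Eif5 (400.0, 416 and 395 CPM against 456 and 517, log2 0.27 ± 0.10, edgeR adjusted p = 0.126) and in Eif1a, the gene for the tRNA-positioning factor eIF1A (138, 126 and 149 against 156 and 179.8, log2 0.29 ± 0.11, adjusted p = 0.151). Eif4g3 read 119.9, 137 and 139 CPM under PBS and 156 and 154 under IL-1β. Eif3d moved the other way, at 384, 359 and 379 against 304 and 339. Eif4a1 read 1545, 1462 and 1551 CPM under PBS and 1691 and 1857 under IL-1β (log2 0.23 ± 0.11, adjusted p = 0.236). The LK values were tight, with a median SD over the members of 0.0832 on the log2 CPM scale under PBS, against 0.242 in LSK. All 6 granulocyte and monocyte progenitor markers were called higher and 4 of 6 erythroid markers lower in these libraries (summed erythroid markers 1599 to 2026 RPKM under PBS, 982 to 1104 under IL-1β), and their part in the eIF values was not tested.

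The difference of the LSK and LK responses was tested as an interaction over the 10 libraries. Of 48 members, 40 had a more positive change in LSK, with a median difference of 0.36 against -0.12 over all genes. None passed, however, against 0.0289% of 13839 genes. At an unadjusted p under 0.05, 8 members were more positive and 0 more negative (16.7%, all genes 14.2%), and DESeq2 called 1, Eif5b (2.08%, all genes 2.4%), both near the share over all genes. Eif5b had the lowest adjusted p in edgeR's quasi-likelihood test as well (log2 0.96 ± 0.24, adjusted p = 0.152). Its LK libraries read 335, 304 and 274 CPM under PBS and 252 and 275 under IL-1β, with no rise to set beside that in LSK. A different response of the members in LSK and LK was thus not shown at this depth.

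The MSC comparison asked what 72 h of IL-1β did in the wild-type cultures. Here most members lay lower under treatment and 2 passed. Of 47 tested, 35 were negative and 12 positive, the median log2 change was -0.09 (all genes 0.00), and Eif1b and Eif5a were called lower, none higher, against 4.31% of all 13239 genes lower and 7.14% higher. Both treated libraries lay below both controls in 23 members and above in 5 (29.8% and 31.3% of all genes). The share of members called lower, 4.26%, was about that of all genes.

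Eif1b, a close relative of Eif1, read 68.2 and 83.0 CPM under PBS and 47.8 and 43.9 under IL-1β (log2 -0.72 ± 0.13, edgeR quasi-likelihood adjusted p = 0.0263). Eif5a read 567 and 685 against 398 and 397 (log2 -0.66 ± 0.13, adjusted p = 0.0321). Both fell in each treated library. Eif1ax, which encodes eIF1A from the X chromosome, read 70.4 and 68.7 CPM against 47.8 and 53.9 (log2 -0.45 ± 0.11, adjusted p = 0.0517), just short of the threshold. Eif3k, a peripheral subunit gene of eIF3, read 131 and 158 against 106 and 107 (log2 -0.44 ± 0.12, adjusted p = 0.0737). Eif3j1 read 55.2 and 67.3 against 42.2 and 46.7 (adjusted p = 0.0780). These members too were separated without overlap.

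Eif4a1 read 792 and 742 CPM under PBS and 637 and 649 under IL-1β in MSC (log2 -0.25 ± 0.11, edgeR adjusted p = 0.178), and Eif4ebp1 76.2 and 61.2 against 44.5 and 52.9 (log2 -0.49 ± 0.15, adjusted p = 0.0944). On the other side stood Eif4g3, at 95.0 and 121 CPM against 150.1 and 142 (log2 0.43 ± 0.14, adjusted p = 0.104). The ratio of Eif4ebp1 to Eif4ebp2 per kilobase was 1.32 to 1.68 under PBS and 0.896 to 1.10 under IL-1β. The PBS libraries differed between themselves in some members, with Eif5b at 151 and 329 CPM beside 223 and 238 under IL-1β, and Eif2s2 at 124 and 207 beside 145 and 146. No treated value of these 2 lay outside the range of the controls. Fits without 1 MSC library leave 1 library in a group, so only effect sizes are given for them. The members' median log2 change in them ran from -0.14 to -0.07 (all genes -0.02 to 0.01). The 2 calls rest on 2 libraries a group. The summed macrophage markers were at 10134 to 12930 RPKM under PBS and 27107 to 27754 under IL-1β, with 5 of 8 called higher; their part in the eIF values was not tested.

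Genes that act with the factors were followed in 5 lists. In LSK against LK under PBS, 4 of 6 termination and recycling genes were called lower (median log2 -0.68), namely Etf1 (-0.72), a release factor gene, Gspt1 (-0.66), its GTPase partner, Abce1 (-0.80), which splits ribosomes, and Hbs1l (-0.70), a rescue factor gene. Of 14 partners of initiation 3 were lower, Pabpc4 (-1.39), which binds poly(A), Mknk1 (-0.56), a kinase gene of eIF4E, and Abcf1 (-0.56), and Paip2b (0.60), which binds the poly(A)-binding protein, was higher. Lower calls numbered 1 of 7 elongation genes (Eef1e1), 1 of 6 genes of the eIF2 kinases and phosphatase subunits (Eif2ak1, the heme-regulated kinase, -0.78) and 1 of 8 mTORC1 genes (Rps6kb1, -0.60). Under IL-1β the same comparison called Pdcd4 (0.85), an inhibitor of eIF4A, and Rheb (1.06), the activator of mTORC1, higher in LSK.

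For IL-1β against PBS, no gene of the 5 lists was called in LSK or in LK. In LSK the 7 elongation and 6 termination genes tested all had positive values, with medians of 0.17 and 0.43. Of the kinase and phosphatase genes 2 of 6 did, and of the mTORC1 genes 2 of 8 (medians -0.34 and -0.30). These last lists pool genes of opposing action, so their medians give no direction of activity. In LK the medians of the lists ran from -0.16 to 0.08. In MSC, Eif2ak2, the interferon-inducible eIF2 kinase gene, rose (log2 1.28 ± 0.20, edgeR adjusted p = 0.0171) and Eef1a2, an elongation factor gene, fell (log2 -0.64 ± 0.12, adjusted p = 0.0269), and no other listed gene was called.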

How the data were processed

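RNA was depleted of ribosomal RNA, and libraries were made with the NEBNext Ultra II kit. The authors trimmed reads with fastp 0.20.0, aligned them with HISAT2 2.0.1 and used featureCounts 2.0.2 to count pairs on the reverse strand of each gene (Ensembl annotation of GRCm38). The deposited tables hold raw counts per gene with exon lengths. Pairs that matched several places or genes were not counted, which lowers members with near copies. One further IL-1β library of the MSC series was not analysed here.

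The tables of 55487 genes were joined by gene ID, and 0 columns of per-sample values were left unused. Each comparison was fitted on all genes that passed filterByExpr with edgeR 4.0.16 (TMM, quasi-likelihood test, R 4.3.3), and p-values were adjusted over all genes tested by Benjamini-Hochberg. Calls needed an adjusted p under 0.05 and a change of over 0.5 on the log2 scale; for the interaction the adjusted p was enough. Standard errors are the log2 fold change divided by the square root of F. Of the 50 members 2 were not tested in any comparison (Eif4e1b, Eif4ebp3), and Eif3j2 also not in MSC. RPKM used TMM library sizes over all 14 libraries. Under PBS, LSK and LK libraries of the same number shifted in the same sense (r = 0.211, 0.128 and 0.472). The numbers were taken to pair them in the block fits only, which no label states. LSK and LK libraries of different numbers were not compared in this way. The main tests used no pairing. Under IL-1β r was 0.1. With 2 libraries a group the deviations mirror each other, so this is 1 value for both pairs. The steps were tested on simulated data.

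Members with values were those called in a test (at most 10 each), the 5 of lowest p in each IL-1β test and in LSK against LK under PBS, Eif4a1, the paralog groups and the 3 highest and 3 lowest in RPKM in each population. Eif2a, Eif2s3x, Eif3a and Eif4b were named after their values were seen. The members and lists were chosen with earlier results of these data known. Alternatives were DESeq2 1.42.0, its size factors, other count filters, no fold threshold, a replicate block, a joint fit and leaving out each library.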

Additional observations from a re-analysis of the deposited data

Results flagged for a closer look

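In 10 members every LSK library moved one way under IL-1β and every MSC library the other way. The difference between the populations was not tested. Over all genes, every treated library lay above all controls in 18.2% in LSK, 23.5% in LK and 31.3% in MSC. They lay below in 21.4%, 22.2% and 29.8%. The share of all genes with opposite moves is not given here, so an excess among the members is not shown. Log2 changes in LSK and MSC were 0.76 and -0.66 for Eif5a, 0.64 and -0.25 for Eif4a1, 0.71 and -0.45 for Eif3g, 0.66 and -0.47 for Eif3j1, and 0.62 and -0.44 for Eif3k. They were 0.39 and -0.45 for Eif1ax, 0.50 and -0.21 for Eif4a3, an RNA helicase of the exon junction complex, and -0.18 and 0.10 for Eif4ebp2, the only 1 of the 10 lower in LSK. Eif1ad, at 0.54 and -0.31, and Eif2b5, at 0.51 and -0.11, were named here after their values were seen. Between LK and MSC the same held for 3 members, Eif5a (0.24 and -0.66), Eif4a1 (0.23 and -0.25) and Eif4a3 (0.16 and -0.21). LSK and LK came from mutant grafts treated for weeks and MSC from wild-type cultures treated for hours, so population, genotype and exposure cannot be told apart.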

How the results depend on the processing

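Depth was lower in all IL-1β libraries of LSK and LK than in their controls, and with 2 libraries a group a member must change far beyond its spread to be called; no calls do not show that levels were equal. In LSK under IL-1β, members called higher numbered 0 in most settings, 1 with DESeq2 and 4 in the joint fit of both populations. These were 2.08% and 8.33% of members, against 6.89% and 8.87% of all genes. None was lower. In LK the fit without a fold threshold called 1 lower (Eif4enif1), 2.08% of members against 10.5% of all genes. In LSK against LK under PBS the other settings called 20 to 25 lower and 1 higher. In either direction this was 43.75 to 54.2% of members, against 18.5 to 36.3% of all genes. In LSK against LK under IL-1β, lower calls were 0 with DESeq2 size factors, 4 without a filter on low counts and 1 with at least 10 counts in 2 libraries. They were 0 in the joint fit, which called 1 higher. In either direction these settings called 2.08 to 12.2% of members, against 4.40 to 11.2% of all genes. For the difference of responses, DESeq2 and the fit without a filter each called 1 (Eif5b), beside 332 of 13839 and 398 of 24037 genes. In MSC all settings on the full libraries called Eif1b and Eif5a.

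With the replicate number as a block, LSK against LK gave 1 higher and 23 lower under PBS and 2 higher and 3 lower under IL-1β. In either direction this was 50% and 10.4% of members, against 32.4% and 17.5% of all genes. Within a population, PBS and IL-1β libraries share only a number (r = 0.126 and -0.035 in LSK, -0.102 and 0.0333 in LK). That block called 0 in LSK, 1 higher (Eif4e3) and 1 lower (Eif4a2) in LK, and 0 for the difference of responses. The calls in LK were 4.17% of members against 18.2% of all genes. No paired fit was made for MSC, whose groups share 1 number.

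Leaving out 1 library at a time, members called higher ranged from 0 to 1 in LSK, 0 to 1 in LK and 0 to 2 in MSC, where 0 to 7 were lower. In LSK against LK, 8 to 27 were lower under PBS, and under IL-1β 0 to 3 were higher and 0 to 13 lower. Without 1 PBS library the difference of responses gave 0 to 3 members higher and 0 lower. The 3 came without LSK PBS replicate 2, where 336 of 13626 genes were called. Where a group was left with 1 library, that library was assumed to vary like the others. Eif5b in MSC ran from -0.51 without MSC PBS replicate 2 to 0.61 without MSC PBS replicate 3, a reversal of its log2 change of -0.07; the cause was not tested. Of 764 log2 changes in all leave-out fits, those with 1 library in a group included, 710 kept direction and call. Of 1051 in the other settings 1027 did.

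Without TMM factors the members' median RPKM was 56.2 in LK PBS, 50.9 in LK IL-1β, 25.2 in MSC PBS and 22.3 in MSC IL-1β. In LSK it was 39.99 under PBS, from 34.3 with TMM, and 42.3 under IL-1β, from 40.7. Leaving out 1 library it was 31.4 to 36.3 in LSK PBS, 35.9 to 44.8 in LSK IL-1β, 50.7 to 54.4 in LK PBS, 45.8 to 49.7 in LK IL-1β, 29.4 to 32.8 in MSC PBS and 28.01 to 28.44 in MSC IL-1β.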
